A study of Mus musculus with 8 samples.

Results

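Antisense lncRNAs are long noncoding RNAs (lncRNAs) read from the DNA strand opposite to another gene, here called the overlapped gene. They were examined in RNA of extracellular vesicles (EVs) isolated from the left ventricle of 10-week-old male C57BL/6J mice, with 1 library per mouse. For each mouse an FPKM (fragments scaled to transcript length and library size) and a fragment count were given, for lncRNAs and for mRNAs. The IR group held 4 mice whose left anterior descending artery was tied for 45 min and reopened for 24 h, and the sham group held 4 mice with the sham operation. A transcript was a member if the deposited relation to its associated gene contained the word antisense and its length was at least 200 nt, with Kcnq1ot1, Gas5 and the Snhg genes left out by name (10 transcripts). This rule used no expression value and found 6640 of 31549 lncRNA transcripts. The deposited relation classed 3891 of them as natural antisense (exons overlapping exons of the gene) and 2749 as intronic antisense. They named 4308 overlapped genes, of which 4239 were found in the mRNA table, and 1297 of the genes had 2 or more antisense transcripts (25 at Gm20388, the most). Transcripts of 1 gene share its locus and were not treated as independent.

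The libraries held 805140 to 1842826 lncRNA fragments and 13824442 to 22497260 mRNA fragments. Antisense lncRNAs took 5.96% (IR 3) to 13.0% (IR 1) of the lncRNA fragments in IR and 8.0% to 8.52% in sham. These shares include a mitochondrial pair, described below, whose fragments may not be separable from mitochondrial mRNAs. The labels give the tissue as cardiac EVs, but defining cardiomyocyte markers were at or near 0: their 17 genes summed to 4.72 to 6.51 FPKM in IR and 6.10 to 11.9 FPKM in sham, with Myl2, Nppa, Nppb, Mb and Csrp3 at 0 in every library. All 23 genes of the enterocyte list were found, with sums of 28506 to 40892 FPKM in IR and 25417 to 30480 FPKM in sham. This list, called enterocyte markers below, also holds the crypt stem cell gene Lgr5. Leukocyte markers (13 of 15 found, Ly6g at 0) summed to 60.1 to 120 FPKM in IR and 34.2 to 79.6 FPKM in sham. The 11 fibroblast and endothelial markers summed to 87.7 to 201 FPKM in IR and 117 to 164 FPKM in sham. In such bulk RNA, fewer cells of a type and less RNA per cell cannot be told apart.

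An antisense RNA can act on its partner in several known ways. It can pair with the sense RNA, the passage of its polymerase can disturb transcription of the gene, or it can bring chromatin modifiers to the locus. Airn, transcribed across the promoter of Igf2r, is the classical imprinted example, and long duplexes of sense and antisense RNA are substrates of ADAR editing enzymes and of RNA sensors. The partners can meet with their starts (head to head) or with their ends (tail to tail), or 1 can lie inside the other. Many antisense RNAs are nuclear, of low abundance and turned over by the exosome, the cell's RNA decay complex, which shares only its name with vesicles.

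Sequence on the antisense strand is shown first for the members on which the results turn, because it is what tells these transcripts from their partners. It was read from the RefSeq sequence of GRCm38.p6 (mm10) at exon positions of GENCODE M21 or RefSeq, 5′ to 3′ on the strand of the antisense lncRNA. The first line is the end of the intron of Gm10680 and the start of its exon 2 (chr9:46243041-46243200, minus strand). Its capitals mark the exon, all of which lies opposite a coding exon of Apoa4. In the next 4 lines, capitals mark exon 1 and lower case the start of the intron. These are 4930466I24Rik inside Fgd5 (chr6:92016013-92016117, minus strand), Gm16586 at Cox20 (chr1:178323560-178323679, minus strand), Abhd11os at Abhd11 (chr5:135013045-135013157, minus strand) and Airn at Igf2r (chr17:12741374-12741484, plus strand). For Airn the end of the intron and the start of exon 2, in capitals, follow (chr17:12814436-12814555, plus strand). A stretch of Gm16586 that lies opposite coding bases of the last Cox20 exon, in capitals, and the end of the Cox20 intron before it, in lower case, is also given (chr1:178322441-178322613, minus strand). The last line is the 3′ end of AK008541 (chr17:34506430-34506489, minus strand), with the polyadenylation hexamer in capitals.
Gm10680 acceptor: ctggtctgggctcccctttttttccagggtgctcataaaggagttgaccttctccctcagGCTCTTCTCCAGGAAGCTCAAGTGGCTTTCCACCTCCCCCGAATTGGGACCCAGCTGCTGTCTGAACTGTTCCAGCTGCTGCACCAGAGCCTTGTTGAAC
4930466I24Rik donor: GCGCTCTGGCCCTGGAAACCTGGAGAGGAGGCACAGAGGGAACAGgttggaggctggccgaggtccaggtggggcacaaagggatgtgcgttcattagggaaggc
Gm16586 donor: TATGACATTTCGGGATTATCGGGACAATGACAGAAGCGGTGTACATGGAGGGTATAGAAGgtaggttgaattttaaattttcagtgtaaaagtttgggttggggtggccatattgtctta
Abhd11os donor: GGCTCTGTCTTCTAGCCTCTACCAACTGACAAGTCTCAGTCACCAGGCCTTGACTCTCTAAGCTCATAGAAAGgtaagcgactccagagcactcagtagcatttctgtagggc
Airn donor: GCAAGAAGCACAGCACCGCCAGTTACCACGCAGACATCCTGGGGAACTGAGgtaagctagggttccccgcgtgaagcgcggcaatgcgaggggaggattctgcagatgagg
Airn acceptor: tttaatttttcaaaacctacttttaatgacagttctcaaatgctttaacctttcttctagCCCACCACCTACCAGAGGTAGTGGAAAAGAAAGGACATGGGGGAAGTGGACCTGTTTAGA
Gm16586 opposite Cox20: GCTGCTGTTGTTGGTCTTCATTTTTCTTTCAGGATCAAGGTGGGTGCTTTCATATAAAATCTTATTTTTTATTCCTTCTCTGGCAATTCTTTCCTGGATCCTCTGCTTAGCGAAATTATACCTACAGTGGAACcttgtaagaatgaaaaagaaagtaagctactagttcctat
AK008541 3 prime end: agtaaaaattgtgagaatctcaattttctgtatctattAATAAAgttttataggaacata

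Each exon 1 printed above is followed by GT and each exon 2 is preceded by AG, the bases that mark an intron, on the antisense strand. Exon models could be placed for 3139 members, and 3138 of them had the deposited strand. Of the 211 placed members that were tested for expression, 194 were spliced. Their 581 introns began with GT and ended with AG on the antisense strand in 566 cases (97.4%) and on the strand of the gene in 0. An intron with these bases on 1 strand reads CT to AC on the other, so the 0 was fixed for those 566. The hexamer AATAAA was present in the last 60 bases of 94 of the 211 (44.5%), and its reverse complement TTTATT in the same bases of 11 (5.21%). A transcript of the other strand would end at the opposite end of the model, which was not searched. These shares therefore do not compare the strands. In AK008541 the hexamer began 22 bases before the end. These are properties of the gene models, not of the reads.

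Antisense lncRNAs were detected in the EVs about as often as not. At least 1 fragment was counted for 3419 members (51.5%), and 3221 had 0 fragments in all 8 libraries. Natural antisense transcripts were detected in 61.7% of cases and intronic ones in 37.0%, against 41.7% of intergenic lncRNAs and 73.4% of bidirectional ones. A mean of at least 0.5 FPKM over the 8 libraries was required for a test, and 576 members reached it, 448 natural and 128 intronic. The nearest values were 0.498 FPKM below and 0.5 FPKM above it. Thus 8.67% of antisense lncRNAs were tested, against 9.79% of all lncRNAs, 17.6% of bidirectional and 27.8% of exon sense-overlapping ones. The tested members were longer than the others (median 1568.5 against 1201 nt) and mostly of low abundance, with 253 under 1 FPKM and 31 over 10 FPKM. All counts of tested members below refer to these 576, not to all 6640.

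Detection followed the level of the overlapped gene. For natural antisense transcripts it was 44.0% where the gene was under 0.5 FPKM (1000 members), 64.0% at 0.5 to 10 FPKM (1512 members), 72.0% at 10 to 100 FPKM (1197 members) and 83.2% at 100 FPKM or more (125 members). The share that reached 0.5 FPKM was 6.90%, 11.4%, 14.9% and 18.4% in the same order. For intronic antisense transcripts detection was 25.1% (999 members), 40.1% (997 members), 48.6% (646 members) and 52.9% (70 members). Length, transcripts of 1 gene and libraries are shared among these points, so the order is given as a description.

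Because reads of an abundant gene would appear as antisense signal if strands were mixed, the antisense transcripts of the most abundant genes were inspected. The library kit keeps strand, and the strand setting of the counting is not given in the sources used here. At the 101 genes of 100 FPKM or more lay 125 natural antisense transcripts. Their median level was 0.0230% of that of the gene, 78 were under 0.1 FPKM, and 21 had 0 fragments. AK140152_2, opposite mt-Co1 (cytochrome c oxidase subunit 1, 10772 FPKM), averaged 1.66 FPKM. AK142426, opposite the cytoskeletal actin gene Actb (3460 FPKM), averaged 0.3 FPKM, and AK144940, opposite Mttp (the lipid transfer protein of chylomicron assembly, 1009 FPKM), averaged 0.00445 FPKM. Of 24 placed transcripts with at least 90% of their exons inside exons of a gene of 10 FPKM or more, 21 were under 0.1 FPKM and 1 was tested (median 0.00218% of the gene). Among the 125, 9 exceeded 1% of the gene, with the highest share, 89.8%, at mt-Nd5. A small share of fragments from the other strand was not tested for, and it would weigh most where the gene is far above the antisense lncRNA, as at Apoa4.

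The antisense signal lay in few transcripts. Of 976840 antisense fragments, 30.6% belonged to 1 transcript, 63.6% to 10 and 80.2% to 100. The transcript with 30.6% was the mitochondrial uc009vfc.1 (299260 fragments), followed by the mitochondrial uc012hdm.1 (223699 fragments). Fragments of both may not be separable from mitochondrial mRNAs (below), so the antisense signal is uncertain to that extent. The plot of the 10 most abundant antisense lncRNAs gives their level in each library.

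**Figure D1:**
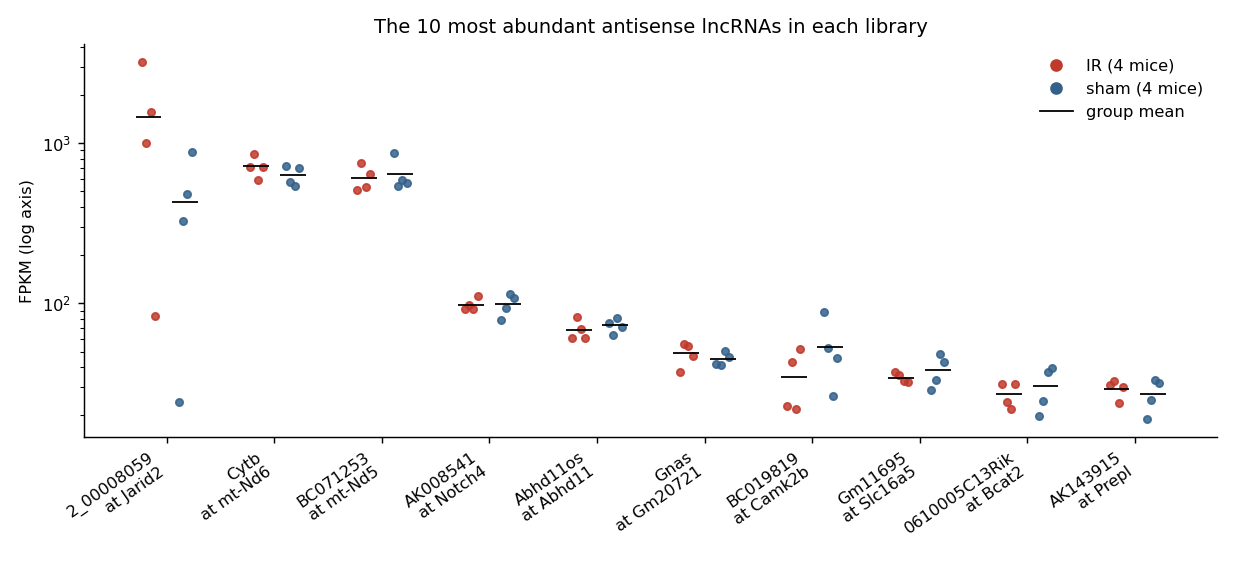
The 10 antisense lncRNAs with the highest mean FPKM, 1 point per library on a log FPKM axis, IR and sham libraries in separate colours. The 327-nt transcript 2_00008059 at Jarid2 ranges from 24.1 to 3211 FPKM, the others range far less, and the groups overlap in all 10.

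Highest in mean FPKM, and most variable, was a transcript at Jarid2, the gene of a partner of Polycomb repressive complex PRC2. This was 2_00008059, a 327-nt intronic antisense transcript on chromosome 13 with 24483 fragments. It had 3211, 1004, 1560 and 83.8 FPKM in IR 1 to 4, against 24.1, 324, 480 and 882 FPKM in sham 1 to 4. IR 4 was below 3 of the 4 sham libraries, so the groups overlapped (log2 fold change 1.91 ± 1.18 SE, edgeR adjusted p = 0.794). Jarid2 itself stayed at 16.3 to 22.5 FPKM in IR and 16.1 to 21.7 FPKM in sham (log2 fold change 0.10, edgeR adjusted p = 0.767).

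A pair of mitochondrial transcripts came next in mean FPKM and held the most fragments. uc009vfc.1 (2883 nt), which carries the name of Cytb, a subunit of respiratory complex III, and is classed as antisense to the complex I gene mt-Nd6, had 706, 852, 589 and 714 FPKM in IR and 724, 573, 538 and 701 FPKM in sham. uc012hdm.1 (2351 nt), classed as antisense to mt-Nd5, another complex I gene, had 509, 751, 535 and 645 FPKM in IR and 864, 539, 584 and 567 FPKM in sham. The groups overlapped in both (log2 fold changes 0.27 and 0.03, edgeR adjusted p = 0.759 and 0.988). Both strands of mitochondrial DNA are transcribed in full and carry genes, so fragments of these transcripts may not be separable from those of neighbouring mitochondrial mRNAs on the same strand.

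Abhd11os, 519 nt long and antisense to Abhd11, the gene of a mitochondrial hydrolase, exceeded its partner in every library. It had 60.8, 82.2, 68.9 and 61.1 FPKM in IR and 75.9, 63.6, 81.6 and 70.8 FPKM in sham, where Abhd11 had 22.6, 18.6, 23.7 and 25.5 FPKM in IR and 45, 29.1, 27.8 and 24.9 FPKM in sham. The ends of both overlap by 54 nt of exon, tail to tail. The groups overlapped for Abhd11os (log2 fold change 0.01 ± 0.16 SE, edgeR adjusted p = 0.990), and for Abhd11 the log2 fold change was −0.32 (edgeR adjusted p = 0.512). For Abhd11os the sign was the same under median-ratio scaling (0.0052) and mRNA-table scaling (0.025) and the opposite under limma on FPKM (−0.10).

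AK008541 is classed as intronic antisense to Notch4, a Notch receptor gene of endothelium, and had 91.9, 97.9, 92.4 and 111 FPKM in IR and 79.3, 93.3, 114 and 108 FPKM in sham. Notch4 had 1.16 to 2.31 FPKM in IR and 1.20 to 3.03 FPKM in sham. This pairing rests on a deposited span of Notch4 (chr17:34226174-34586209) that is far wider than the GENCODE gene (chr17:34564268-34588503), and the deposited position of AK008541 (chr17:34506430-34507457) holds no GENCODE gene. Of 6282 members with a GENCODE gene of the same name, 40 (6 of them tested) had a deposited gene span more than 5 times the GENCODE span.

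Other abundant members also had overlapping groups. uc007hxv.1, at Camk2b (a calcium/calmodulin-dependent kinase subunit), had 22.8, 43.0, 21.9 and 51.8 FPKM in IR and 88.8, 52.8, 26.4 and 45.9 FPKM in sham (log2 fold change −0.53, edgeR adjusted p = 0.829). NR_003258, a Gnas transcript that spans Gm20721, averaged 48.8 ± 8.55 FPKM in IR and 44.9 ± 4.24 FPKM in sham (SD, n = 4 each). It shares the name of the Gs alpha subunit gene Gnas, which the mRNA table also counts, so its level is uncertain, as is that of the 254 members (61 tested) named as a gene of the mRNA table. Gm11695, head to head with the monocarboxylate transporter gene Slc16a5, averaged 34.4 ± 2.33 FPKM in IR and 38.5 ± 8.93 FPKM in sham. 0610005C13Rik at Bcat2, the mitochondrial branched-chain aminotransferase, averaged 27.3 ± 4.81 FPKM in IR and 30.4 ± 9.60 FPKM in sham. AK143915 at Prepl, a prolyl endopeptidase-like gene, averaged 29.3 ± 3.88 FPKM in IR and 27.3 ± 6.64 FPKM in sham (SD, n = 4 each). Bcat2 (6.16 ± 0.988 FPKM in IR and 7.53 ± 0.819 FPKM in sham) and Prepl (6.54 ± 0.587 FPKM in IR and 7.84 ± 2.13 FPKM in sham) lay below their antisense partner.

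In 475 pairs (390 genes) both the antisense lncRNA and the gene were tested. The antisense lncRNA was usually the weaker partner, at a median of 12.6% of the FPKM of its gene (median log2 ratio −2.99, quartiles −4.56 and −1.46). It exceeded the gene in 49 pairs, 40 of 373 natural and 9 of 102 intronic. Head-to-head pairs had a median log2 ratio of −3.66 (85 pairs), pairs with the antisense inside the gene −2.94 (36 pairs) and tail-to-tail pairs −2.55 (45 pairs). Both FPKM values are per length, and in each library the deposited counts had the same scale for lncRNAs and mRNAs. Across the 475 pairs, which share libraries and in part genes, Pearson's r of the log2 FPKM was 0.069 and Spearman's rho 0.0061. Weaker partners are left out by the minimum of 0.5 FPKM, so the median ratio and the correlations describe only pairs above it. By arrangement, they were 0.38 and 0.28 for antisense inside the gene, 0.20 and 0.30 for tail-to-tail pairs, and 0.15 and 0.10 for head-to-head pairs. A further 101 tested members had a gene below the minimum or not in the mRNA table (95 and 6), and at 18 of them the gene had 0 fragments.

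**Figure D2:**
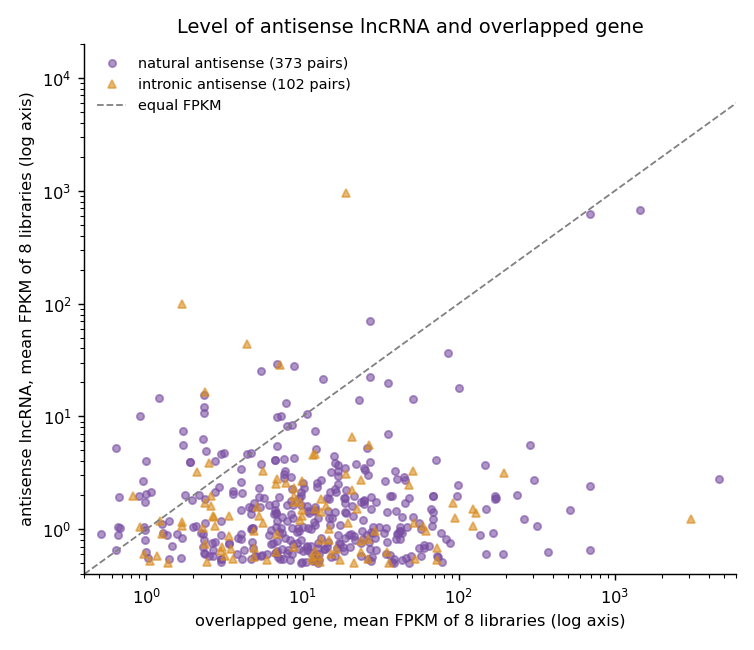
Mean FPKM over 8 libraries of each antisense lncRNA (vertical log axis) against its overlapped gene (horizontal log axis) for 373 natural and 102 intronic pairs, with the line of equal FPKM. Most points lie below the line, and 49 lie above it.

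The overlap itself was measured for placed members with a gene model. In these models 32 members, 12 of them natural antisense, lay apart from their gene and had 0 nt of overlap. Of those that met their gene, the 1793 natural antisense transcripts overlapped its exons by a median of 199 nt, or 18.2% of the antisense transcript, and 25 of 1245 intronic ones had any exon overlap. The class intronic does not mean inside the gene, since 227 of the 875 head-to-head members carried it. Head-to-head members (875) were tested in 10.3% of cases, tail-to-tail members (603) in 9.78% and those inside the gene (1429) in 3.36%.

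The IR and sham groups were then compared to ask which antisense lncRNAs of the EVs differ after reperfusion injury. No antisense lncRNA was called. With edgeR's quasi-likelihood test, an adjusted p under 0.05 and a fold over 2 were met by 0 of 576 members, and by 0.0% of the 3088 lncRNAs tested. The smallest adjusted p of a member was 0.366. At an unadjusted p under 0.05 stood 33 members, or 5.73%, against 7.09% of all lncRNAs tested. Of the 33, 22 were higher in IR (background 4.34%) and 11 lower in IR (background 2.75%). DESeq2 called 2 members (0.486% of all lncRNAs), and limma called 0 (0.0324% of all lncRNAs). The median log2 fold change was −0.02 (280 positive, 296 negative, against 50.7% positive among all lncRNAs tested), beside 0.01 over all of these. The median SE was 0.31 and the median coefficient of variation 29% in IR and 28.0% in sham, against 14.5% in IR and 14.6% in sham for the overlapped genes. The p-values measure the spread between the 4 mice of a group.

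The balance of directions was similar under other scalings of the fragments, with 19 members higher and 12 lower under median-ratio scaling and 24 higher and 9 lower under mRNA-table scaling, and with 15 higher and 10 lower in DESeq2. It was the opposite under limma on the FPKM as deposited, a different test on a different measure, with 12 higher and 26 lower. There the median log2 fold change was −0.09 over all lncRNAs and −0.10 over all mRNAs. Counted by FPKM, 10 members were higher in all IR libraries than in any sham library (background 1.94%) and 18 lower (background 2.88%). After TMM scaling, an alternative chosen after seeing the data, the counts were 16 (background 3.08%) and 13 (background 2.17%). Each of these shares is close to its background.

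**Figure D3:**
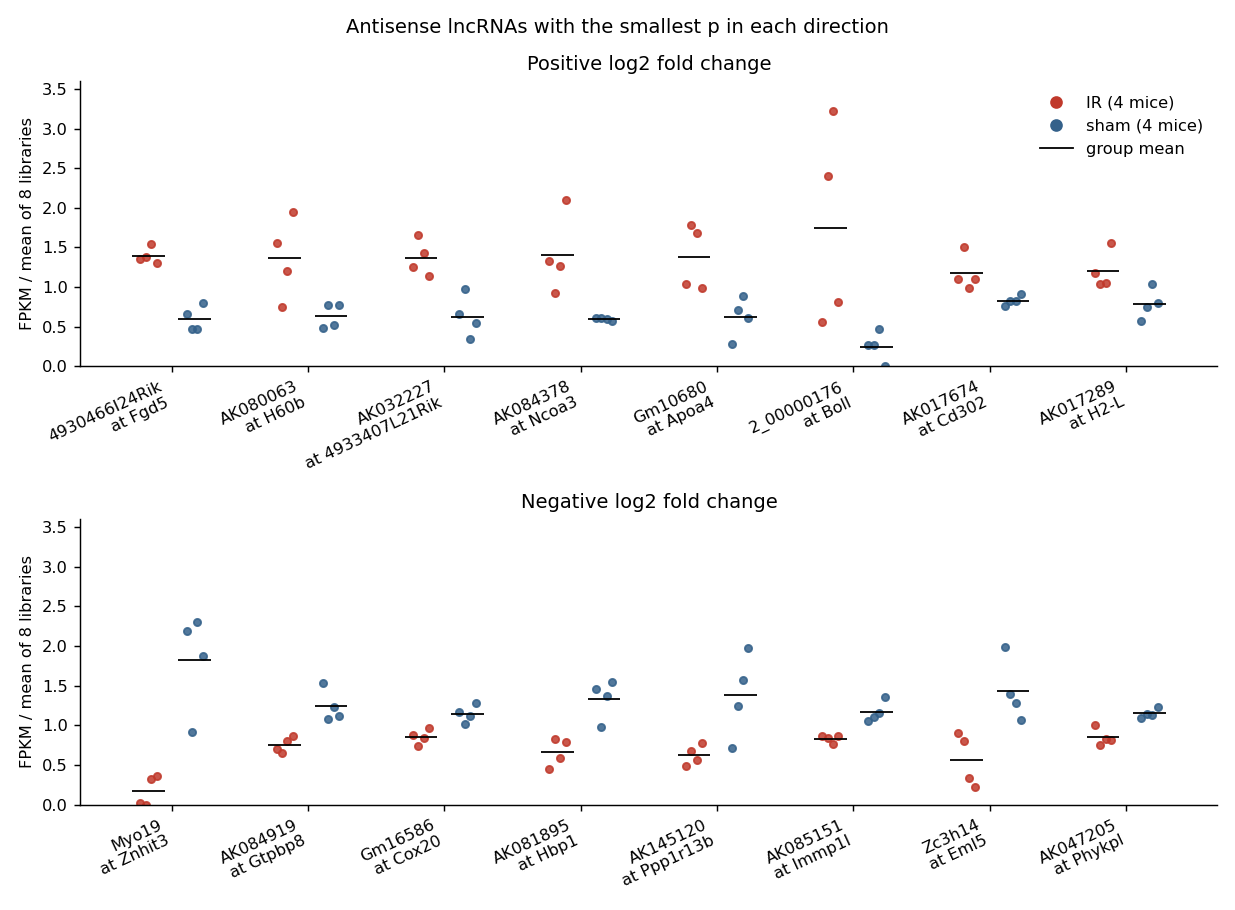
The 8 antisense lncRNAs higher and the 8 lower in IR with the smallest edgeR p, 1 point per library, as FPKM divided by the mean of the 8 libraries of that transcript. IR and sham libraries do not overlap for 13 of the 16, yet no adjusted p is below 0.366.

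The smallest p belonged to 4930466I24Rik, a spliced 2264-nt transcript of chromosome 6 that lies inside Fgd5, a Cdc42 exchange factor gene of endothelium, with no exon overlap. It had 0.715, 0.726, 0.815 and 0.684 FPKM in IR, against 0.351, 0.251, 0.248 and 0.420 FPKM in sham. Every IR library was above every sham library, on a total of 175 fragments. Its mean of 0.526 FPKM reached the minimum for a test only through the IR libraries (sham mean 0.317 FPKM). Likewise uc011ybn.1, AK032227, AK084378, 2_00000176, AK081895 and NR_027648, named below, reached 0.5 FPKM only through the group where they were higher. For such members the filter and the difference between groups are not independent. The log2 fold change was 1.31 ± 0.25 SE (edgeR adjusted p = 0.366, DESeq2 adjusted p = 0.0397). Fgd5 did not show this, with 0.950 ± 0.238 FPKM in IR and 1.17 ± 0.332 FPKM in sham (SD, n = 4 each; log2 fold change −0.02, edgeR adjusted p = 0.977). The log2 ratio of antisense to gene was 1.29 higher in IR (two-sided exact permutation test, unadjusted p = 0.0286, the smallest that 4 against 4 mice allow). Such ratios were compared for 30 named pairs with a tested antisense lncRNA, and 9 reached this smallest p. Since 16 of the antisense lncRNAs were named for their small p, those ratios are not independent of the choice, and their p-values are unadjusted.

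Gm10680, 702 nt long with 631 nt of exon opposite Apoa4, is the member at the most abundant nuclear gene of the pairs. It had 2.90, 4.99, 4.71 and 2.76 FPKM in IR, against 0.785, 1.97, 2.49 and 1.71 FPKM in sham, without overlap. The log2 fold change was 1.24 ± 0.40 SE (edgeR adjusted p = 0.697), on 245 fragments. Apoa4, an apolipoprotein of chylomicrons made by enterocytes, had 4053, 8828, 5310 and 3684 FPKM in IR, against 3455, 4118, 3835 and 3665 FPKM in sham, and IR 2 stood highest for both partners. For Apoa4 the log2 fold change was 0.67 (edgeR adjusted p = 0.517), and the log2 ratio of Gm10680 to Apoa4 was 0.70 higher in IR (two-sided exact permutation test, unadjusted p = 0.0571). Gm10680 was at 0.0604% of Apoa4, and the part of Apoa4 fragments in its level was not tested. Beside it, 9 of 23 enterocyte and 5 of 9 leukocyte markers were higher in IR at an unadjusted edgeR p under 0.05 (4.87% of all mRNAs), and 1 enterocyte marker was lower (4.86% of all mRNAs). Of 3 tested cardiomyocyte and 11 fibroblast and endothelial markers, 0 reached that p in either direction. EdgeR called 0 of these markers, and their part in the difference was not tested. AK143434, also opposite Apoa4, averaged 0.161 ± 0.0457 FPKM in IR and 0.0705 ± 0.0324 FPKM in sham (SD, n = 4 each; below the minimum for a test).

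AK017674, opposite the lectin receptor gene Cd302, differed from its partner in direction. It had 2.12, 2.92, 1.91 and 2.13 FPKM in IR, against 1.46, 1.59, 1.59 and 1.76 FPKM in sham, with no overlap (log2 fold change 0.60 ± 0.20 SE, edgeR adjusted p = 0.697). Cd302 averaged 24.7 ± 2.10 FPKM in IR and 29.9 ± 3.00 FPKM in sham (SD, n = 4 each; log2 fold change −0.17, edgeR adjusted p = 0.623). The log2 ratio was 0.74 higher in IR (two-sided exact permutation test, unadjusted p = 0.0286).

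AK084378, at the nuclear receptor coactivator gene Ncoa3, had 0.804, 0.561, 0.768 and 1.28 FPKM in IR and 0.367, 0.368, 0.363 and 0.350 FPKM in sham, on only 68 fragments (log2 fold change 1.29, edgeR adjusted p = 0.556). AK032227 at 4933407L21Rik averaged 0.775 ± 0.127 FPKM in IR and 0.356 ± 0.149 FPKM in sham (SD, n = 4 each; log2 fold change 1.23, edgeR adjusted p = 0.556). Both had groups that did not overlap. By contrast the groups overlapped for AK080063 at H60b, a gene of a ligand of the killer cell receptor NKG2D, and for AK017289 at H2-L, a class I histocompatibility gene. AK080063 had 1.44, 0.697, 1.12 and 1.81 FPKM in IR and 0.452, 0.722, 0.480 and 0.723 FPKM in sham (log2 fold change 1.16), and H60b had 0 fragments in all libraries. AK017289 averaged 1.51 ± 0.307 FPKM in IR and 0.992 ± 0.240 FPKM in sham (log2 fold change 0.68). The 266-nt transcript 2_00000176 at the germ cell gene Boll had 33 fragments in 8 libraries (1.09 to 6.19 FPKM in IR and 0 to 0.910 FPKM in sham).

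Among the 8 named members lower in IR, Gm16586 rested on the most fragments (5713). This 2640-nt transcript on chromosome 1 meets Cox20, an assembly factor gene of cytochrome c oxidase, tail to tail, and their exons overlap in the stretch printed above. It had 12.2, 10.3, 11.8 and 13.6 FPKM in IR, against 16.2, 14.2, 15.5 and 17.8 FPKM in sham. The highest IR library lay just under the lowest sham library (log2 fold change −0.32 ± 0.11 SE, edgeR adjusted p = 0.697). Cox20 had 22.8 ± 1.42 FPKM in IR and 23.2 ± 2.37 FPKM in sham (SD, n = 4 each), and its log2 fold change was 0.07 (edgeR adjusted p = 0.883), or −0.02 under limma on FPKM. The log2 ratio was lower in IR by 0.39 (two-sided exact permutation test, unadjusted p = 0.0857).

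**Figure D4:**
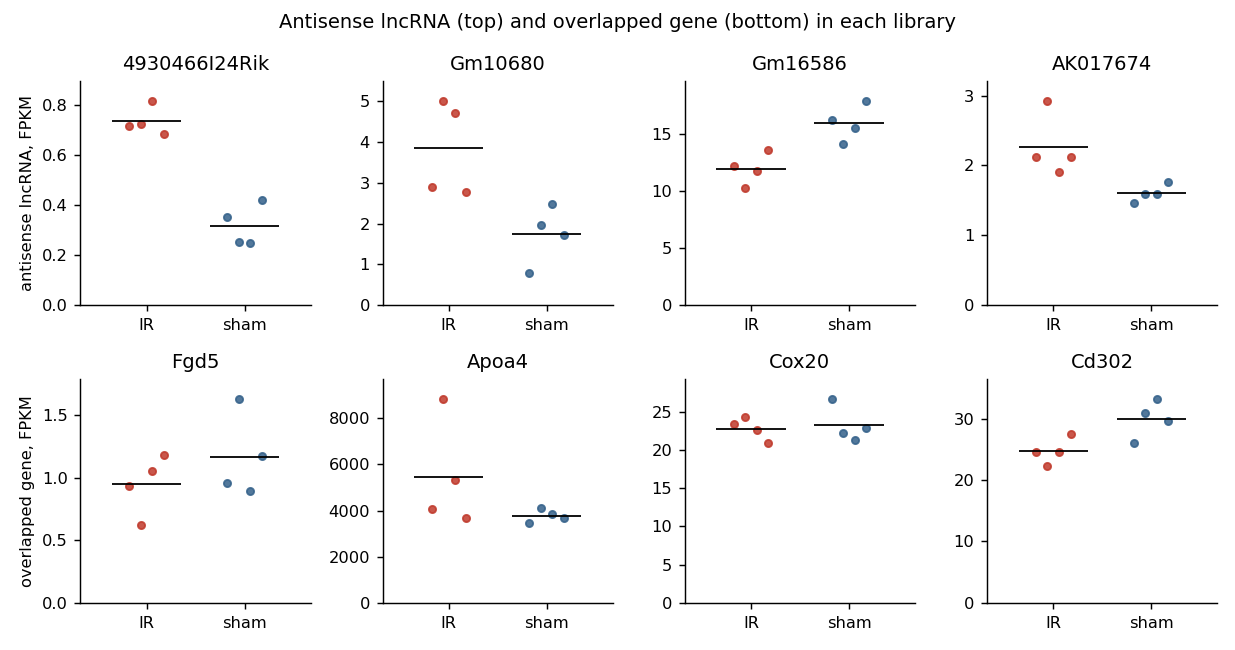
FPKM in each library for 4 antisense lncRNAs (top: 4930466I24Rik, Gm10680, Gm16586, AK017674) and their overlapped genes (bottom: Fgd5, Apoa4, Cox20, Cd302), IR left and sham right, with lines at the group means. IR and sham points are apart in all 4 upper panels and overlap in all 4 lower ones.

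uc011ybn.1 had the lowest log2 fold change of the named members. It is a transcript named after the mitochondrial myosin gene Myo19 and antisense to Znhit3, a zinc finger HIT gene. It had 0.0111, 7.79e-05, 0.179 and 0.197 FPKM in IR, against 1.20, 0.5, 1.26 and 1.03 FPKM in sham. All IR libraries were far below all sham libraries (log2 fold change −3.34 ± 0.89 SE, edgeR adjusted p = 0.576, DESeq2 adjusted p = 0.0397), on 247 fragments in all. It shares its name with an mRNA gene, and how fragments were split between the isoforms was not tested. Znhit3 had 1.98, 2.10, 1.95 and 3.54 FPKM in IR and 5.39, 3.21, 2.49 and 3.46 FPKM in sham (log2 fold change −0.56, edgeR adjusted p = 0.517). NR_027648, a Zc3h14 transcript antisense to Eml5, was of the same kind, with 0.671, 0.601, 0.25 and 0.167 FPKM in IR and 1.48, 1.04, 0.954 and 0.794 FPKM in sham (log2 fold change −1.22, edgeR adjusted p = 0.700).

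The other 5 named members lower in IR had log2 fold changes of −1.05 to −0.34. AK084919 at Gtpbp8, a GTP-binding protein gene, averaged 0.573 ± 0.0729 FPKM in IR and 0.939 ± 0.156 FPKM in sham (log2 fold change −0.62). AK081895 at the HMG-box repressor gene Hbp1 averaged 0.417 ± 0.113 FPKM in IR and 0.840 ± 0.159 FPKM in sham (log2 fold change −0.90). AK145120 at Ppp1r13b, which encodes the p53 partner ASPP1, averaged 0.680 ± 0.138 FPKM in IR and 1.5 ± 0.580 FPKM in sham (log2 fold change −1.05). The groups overlapped only in the last of these, since IR 4 (0.840 FPKM) was above sham 1 (0.777 FPKM). AK085151 at Immp1l, a peptidase subunit of the inner mitochondrial membrane, averaged 1.27 ± 0.0723 FPKM in IR and 1.77 ± 0.206 FPKM in sham (log2 fold change −0.39). AK047205 at Phykpl, a lyase of hydroxylysine breakdown, averaged 4.41 ± 0.550 FPKM in IR and 5.97 ± 0.310 FPKM in sham (log2 fold change −0.34; SD, n = 4 each throughout). All 5 had an edgeR adjusted p of 0.628 to 0.700, and their genes had log2 fold changes of −0.20 to 0.23.

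The overlapped genes were tested among all mRNAs. Of 3002 tested, edgeR called 0 (0.0% of 12716 mRNAs), and the smallest adjusted p was 0.438. At an unadjusted p under 0.05 stood 272 (9.06%), against 9.73% of all mRNAs, with 168 higher in IR (background 4.87%) and 104 lower (background 4.86%). The split was 175 higher and 99 lower under median-ratio scaling, 200 higher and 100 lower in DESeq2, and 87 higher and 199 lower under limma on FPKM. DESeq2 called 11 (0.315% of all mRNAs) and limma 0 (0.0%). The median log2 fold change was 0.02 (1602 positive, 1400 negative, against 49.8% positive among all mRNAs), beside −0.00 over all of these. By FPKM, 34 genes were higher in all IR libraries than in any sham library (background 0.873%) and 131 lower (background 4.37%), and after TMM scaling 93 (background 2.35%) and 81 (background 2.7%). Among the 390 genes with a tested antisense partner, 34 (8.72%) had an unadjusted p under 0.05.

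The 5 overlapped genes higher in IR with the smallest p had no antisense partner that reached the minimum level, and only 390 of the 3002 genes tested had. Ikzf2, the Helios factor of T cells, had 2.25, 1.16, 2.08 and 1.75 FPKM in IR, against 0.483, 0.940, 0.346 and 0.722 FPKM in sham (log2 fold change 1.65 ± 0.30 SE, edgeR adjusted p = 0.438), with 0 fragments for its 2 antisense transcripts. Cd101, a surface protein of T and myeloid cells, averaged 1.51 ± 0.159 FPKM in IR and 0.695 ± 0.208 FPKM in sham (log2 fold change 1.23), with 4 antisense fragments. Cmah, a sialic acid hydroxylase, averaged 1.59 ± 0.195 FPKM in IR and 0.611 ± 0.281 FPKM in sham (log2 fold change 1.33), with 7 antisense fragments. Itpr2, an inositol trisphosphate receptor, and Tiam2, a Rac exchange factor, had log2 fold changes of 0.68 and 0.53, with 3 and 118 antisense fragments. Beside these, 5 of 9 tested leukocyte markers and 9 of 23 enterocyte markers were higher in IR at an unadjusted p under 0.05 (4.87% of all mRNAs), with the T cell gene Cd3g at 12.3 ± 3.89 FPKM in IR and 5.45 ± 1.48 FPKM in sham (SD, n = 4 each). The part of either cell type in these genes was not tested.

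The same held for the 5 genes lower in IR. Kcnq1, a potassium channel gene of heart and epithelia, had 5.77, 5.90, 5.28 and 7.63 FPKM in IR, against 12.7, 9.22, 9.81 and 12.6 FPKM in sham, without overlap (log2 fold change −0.75 ± 0.14 SE, edgeR adjusted p = 0.438). Its 3 antisense transcripts held 2 fragments, Kcnq1ot1 having been left out by the rule. Mgat4c, a glycosyltransferase gene, averaged 1.78 ± 0.554 FPKM in IR and 8.02 ± 5.43 FPKM in sham (log2 fold change −2.09), with 0 antisense fragments. The water channel gene Aqp4 averaged 2.17 ± 0.601 FPKM in IR and 4.58 ± 1.22 FPKM in sham (log2 fold change −0.97), with 2 antisense fragments. The H2B histone gene Hist1h2bq and Gm21685 had log2 fold changes of −0.97 and −2.13, with 1 and 3 antisense fragments (SD, n = 4 each). Gm21685 averaged 0.436 FPKM in IR and 1.94 FPKM in sham, so it reached the minimum of 0.5 FPKM only through the sham group. At these 10 genes no antisense partner reached the minimum level for the main test. Most overlapped genes lacked such a partner too, since only 390 of the 3002 tested had 1.

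Across the 475 pairs, the log2 fold changes of antisense lncRNA and gene were compared. The log2 fold changes had the same sign in 244 pairs (51.4%), with both higher in 125, both lower in 119, antisense higher and gene lower in 103, and antisense lower and gene higher in 128. Pearson's r of the log2 fold changes was 0.047 and Spearman's rho 0.021 over the 475 pairs, which share libraries. For head-to-head pairs, 47 of 85 had the same sign (Pearson's r = 0.25, Spearman's rho = 0.20), for tail-to-tail pairs 24 of 45 (r = 0.20, rho = 0.040) and for antisense inside the gene 18 of 36 (r = −0.0015, rho = −0.0014). In 26 pairs the antisense lncRNA had an unadjusted p under 0.05, and in 0 of these did the gene, where 8.72% of the 390 partner genes had such a p. Taking 1 antisense lncRNA per gene left 197 of 390 (50.5%) with the same sign.

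**Figure D5:**
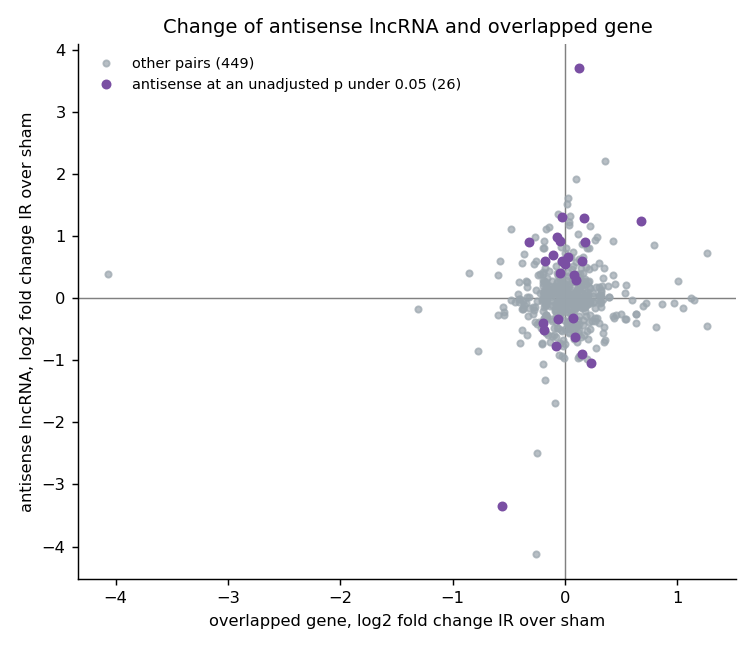
Log2 fold change (IR over sham, edgeR) of the antisense lncRNA (vertical axis) against that of its overlapped gene (horizontal axis) for 475 pairs, with the 26 antisense lncRNAs at an unadjusted p under 0.05 marked in colour. The points fill all 4 quadrants, with 244 in the same-sign ones, and in 0 of the coloured points did the gene reach that p.

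Of 29 well-known antisense lncRNA names, 11 were members (45 transcripts), and Airn held nearly all of their fragments. Its 9 transcripts held 543 fragments, 77.7% of them in the 1113-nt form whose exon boundary is printed above. This form had 1.88, 2.65, 2.55 and 3.21 FPKM in IR, against 2.50, 3.43, 2.22 and 3.26 FPKM in sham, with overlapping groups (log2 fold change −0.07 ± 0.22 SE, edgeR adjusted p = 0.988). Igf2r, the receptor for insulin-like growth factor 2, averaged 22.9 ± 2.00 FPKM in IR and 24.1 ± 3.71 FPKM in sham (SD, n = 4 each; log2 fold change 0.03). ENSMUST00000159791, another tested Airn form, had 33 fragments and averaged 0.916 ± 0.788 FPKM in IR and 0.328 ± 0.263 FPKM in sham. Its groups overlapped (log2 fold change 1.61 ± 1.06 SE, edgeR adjusted p = 0.802), and it reached the minimum only through the IR group. NR_027784, an Airn form below the minimum for a test, was above 0.5 FPKM in IR 3, sham 1 and sham 3 and under 0.1 FPKM in the other libraries. The other 36 transcripts held 9 fragments, 33 of them none, and the 21 transcripts of Six3os1 held 0.

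Antisense transcripts at cell type markers varied from gene to gene. At genes of the enterocyte list, 8 of 11 members had at least 1 fragment and 3 were tested, among them Gm10680. The 8 include AK016357, with 1 fragment, at Lgr5, a marker of crypt stem cells rather than enterocytes. The antisense transcript of Slc2a2, a glucose transporter gene, had 0 fragments, that of Mttp had 1, and 1 of the transcripts at Hnf4a (Hnf4aos) and 1 at Fabp2 had 0. 0610008F07Rik, head to head with Hnf4a (a nuclear receptor of intestinal and liver epithelium), had 3.12, 1.99, 4.62 and 2.97 FPKM in IR and 2.50, 3.13, 3.74 and 3.13 FPKM in sham (log2 fold change 0.12, edgeR adjusted p = 0.981). 4933405D12Rik, whose span holds the fatty acid-binding protein gene Fabp2, averaged 0.820 ± 0.244 FPKM in IR and 1.65 ± 0.906 FPKM in sham (SD, n = 4 each; log2 fold change −0.92, edgeR adjusted p = 0.726). At the cardiac genes, antisense transcripts of Myh6 and Ttn had 0 fragments, those of Ryr2 had 2 and Gm13054 at Nppa had 4. At Csf1r, the macrophage growth factor receptor, uc012bdp.1 (named after Hmgxb3) averaged 0.607 ± 0.280 FPKM in IR and 0.775 ± 0.154 FPKM in sham, beside 12.1 ± 2.42 FPKM in IR and 9.42 ± 2.83 FPKM in sham for Csf1r. The log2 fold changes were −0.27 for uc012bdp.1 and 0.45 for Csf1r (edgeR adjusted p = 0.920 and 0.517). The log2 ratio of uc012bdp.1 to Csf1r was lower in IR by 0.76 (two-sided exact permutation test, unadjusted p = 0.0286).

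Genes of the machinery that meets antisense RNA were read against all mRNAs, of which 0.0% were called, 9.73% had an unadjusted p under 0.05 and 49.8% had a positive log2 fold change. Of 24 tested genes of double-stranded RNA sensing and editing, edgeR called 0, and 0 had an unadjusted p under 0.05 (median log2 fold change 0.09, 18 positive and 6 negative, beside −0.00 over all mRNAs). The smallest p was that of Ilf2, which binds double-stranded RNA, with 9.71 ± 1.89 FPKM in IR and 14.1 ± 5.32 FPKM in sham (log2 fold change −0.43, edgeR adjusted p = 0.527). Of 20 genes of nuclear RNA decay, edgeR called 0, and 0 had an unadjusted p under 0.05 (median −0.09, 6 positive and 14 negative). The exosome subunit gene Exosc2 averaged 4.44 ± 0.679 FPKM in IR and 6.87 ± 3.10 FPKM in sham (SD, n = 4 each; log2 fold change −0.52, edgeR adjusted p = 0.512). Each list had 7 antisense members at its own genes, and 0 of them reached the minimum level, which 8.67% of all antisense lncRNAs reached.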

How the data were processed

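Ribosomal RNA-depleted, stranded total RNA libraries were made from EVs of 4 IR and 4 sham mice. Trimming by the authors used cutadapt 1.9.3, alignment HISAT2 against mm10, and quantification Cufflinks and Cuffdiff. The other versions, the annotation and the strand setting of counting are not given in the sources used here. The deposited FPKM values, which scale fragments to transcript length and library size, are as the authors' Cuffdiff run wrote them. The estimated counts were deposited by the authors as Cuffdiff fragments on a scale that differs between libraries. A single fragment was worth 0.763 to 1.18, the commonest value of its library. Whole fragments were obtained by dividing by that value and rounding. Cuffdiff shares fragments among isoforms, so counts of overlapping isoforms are uncertain. Entries of 1 identifier with different values were summed (70 mRNA genes), and 1 emptied entry per table was left out.

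Features with a mean of at least 0.5 FPKM were tested with edgeR 4.0.16 in R 4.3.3 (TMM, quasi-likelihood F test, two-sided), lncRNAs and mRNAs separately, with Benjamini-Hochberg adjustment over all features tested. Calls were made at an adjusted p below 0.05 with a fold over 2, as in the study's methods. The SE is approximate, being the size of the log2 fold change over the root of its F statistic. The TMM factors of the lncRNAs ran from 0.708 (IR 3) to 1.39 (IR 1). The biological coefficient of variation was 47.2% for lncRNAs and 22.0% for mRNAs. Log2 ratios of antisense to gene, on log2(FPKM + 0.1), were compared by exact permutation over the 70 splits of 8 libraries. Scripts were tested on simulated data. Alternatives were limma 3.58.1, DESeq2 1.42.0, other scalings and filters, a replicate block and leaving out each library. Python 3.11.15 with pandas 2.3.3, numpy 2.4.6, scipy 1.17.1 and matplotlib 3.10.9 was used for the rest.

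The members and all lists were chosen with earlier results of these data known. Members were named if the study's list of cis targets classes them as antisense (2 transcripts), if they were among the 10 with the highest mean FPKM, if they were among the 8 higher and 8 lower in IR with the smallest p (1 per gene), or if they were known antisense lncRNAs or lay at a cell type marker. Overlapped genes were those of named members and the 5 higher and 5 lower in IR with the smallest p. Lists covered cell type markers, double-stranded RNA sensing and editing, nuclear RNA decay and known antisense lncRNAs. Exon positions came from GENCODE M21 and RefSeq, and 3139 members could be placed.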

Additional observations from a re-analysis of the deposited data

Results flagged for a closer look

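In 4 of 92 groups of 4 libraries, taken over the named antisense lncRNAs and their overlapped genes, 1 library stood apart by more than Dixon's 95% critical value of 0.829. Chance flags about 1 in 20 groups. The value compared is the gap between that library and the next one, divided by the range of the group. For uc012hdm.1, sham 1 was highest, at 864 FPKM against 539 to 584 FPKM in the other sham libraries (0.860). For mt-Nd6, IR 2 was highest, at 1856 FPKM against 1283 to 1340 FPKM in the other IR libraries (0.902). For Znhit3, IR 4 was highest, at 3.54 FPKM against 1.95 to 2.10 FPKM (0.900). For Gtpbp8, IR 1 was lowest, at 5.21 FPKM against 6.84 to 6.99 FPKM (0.915).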

How the results depend on the processing

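The absence of calls by edgeR held under median-ratio and mRNA-table scaling, without the fold criterion, without the filter, and under limma. It did not hold under DESeq2, which called 2 antisense lncRNAs (4930466I24Rik, log2 fold change 1.30, and uc011ybn.1, −3.38; adjusted p = 0.0397 each) and 11 overlapped genes (Acap1, Cd101, Cd7, Cmah, Fyb, Gm21685, Iffo1, Ikzf2, Itgae, Mgat4c and Rasal3). Both antisense lncRNAs and the gene Gm21685 reached the minimum mean FPKM only through the group in which they were higher. Leaving out each library in turn gave 0 antisense lncRNAs and 0 to 1 overlapped genes, the 1 being Cmah without sham 2 (adjusted p = 0.0476). The antisense lncRNAs at an unadjusted p under 0.05 (33) ranged from 22 to 40 and the overlapped genes (272) from 194 (without IR 1) to 384 (without sham 2). Without the filter, 106 of 3419 antisense lncRNAs stood there. The share of same-sign pairs ranged from 47.4% to 54.7% over the alternatives. Of alternatives chosen after seeing the data, TMM-scaled fragments gave 16 members higher in IR without overlap in place of 10, and leaving out members named as an mRNA gene left 30 of 515. With the replicate number as a block, 22 antisense lncRNAs and 231 overlapped genes stood at an unadjusted p under 0.05, 0 were called, and 50.7% of pairs had the same sign. Whether the numbers pair the mice is not given in the sources used here. Deviations of same-numbered libraries from their group means correlated by −0.0141 to 0.0936 for lncRNAs and −0.289 to 0.0499 for mRNAs. In these deviations, 1 of 4 and 0 of 4 correlated best with their own number. So few values cannot exclude a pairing.

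Signs turned for 15 small log2 fold changes, and the cause was not tested. Under limma with a pseudocount of 0.1 and of 1, these were Camk2b (−0.13 and −0.074), Notch4 (−0.19 and −0.13), NR_026688 (−0.10 and −0.10), uc012hdm.1 (−0.056 and −0.056), Slc16a5 (−0.057 and −0.057), Jarid2 (−0.033 and −0.031) and Cox20 (−0.024 and −0.023). NR_026688 was also at −0.019 without the filter and at −0.00093 with the replicate block, where Camk2b was at −0.11. Leaving out 1 library gave −0.029 to 0.17 for AK008541, −0.35 to 0.34 for Camk2b, −0.20 to 0.083 for ENSMUST00000144230 (Gm11695), −0.10 to 0.10 for Fgd5, −0.0061 to 0.23 for Gtpbp8, −0.12 to 0.11 for NR_026688 (Abhd11os), −0.24 to 0.075 for NR_038166 (0610005C13Rik), −0.22 to 0.038 for Phykpl, −0.23 to 0.016 for Prepl, −0.041 to 0.19 for Slc16a5, −0.043 to 0.35 for mt-Nd6 and −0.12 to 0.18 for uc012hdm.1. Low levels limit many members: 253 of the 576 tested were under 1 FPKM.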
